A study of Mus musculus with 12 samples.

Results

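The genes described here encode Tudor domain proteins, most of them of germ granules: Tdrd1, Tdrd3, Tdrd5, Tdrd6, Tdrd7, Tdrd9, Tdrd12, Tdrkh, Rnf17 and Stk31. They were taken by name, and all 10 were measured, each by 1 probe set, among 19946 genes. RNA came from whole testes of male mice of a mixed 129/C57BL6 background and was read on 12 Affymetrix Mouse Gene 1.0 ST arrays. All animals had been given WIN 18,446, an inhibitor of retinoic acid synthesis, at 100 ug per g from day 2 to day 8 after birth, then 200 ug of retinoic acid on day 9, and were left for 43 to 49 days, so that most tubules shared neighbouring stages of the seminiferous cycle. The 6 groups, each of 2 samples, were stages XII-I, then II-IV, then IV-VI, then VII, then VIII-IX, and last IX-XI. No untreated testis was analysed here, and nothing in the labels says if a group's samples were separate animals, so each test rests on a spread that may be technical.

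A Tudor domain is a small fold, and in many germ granule proteins it binds methylated arginine. In male germ cells it lets many of these proteins hold PIWI proteins, which carry piRNAs, in granules without a membrane. These granules are the cement between mitochondria of spermatocytes and the chromatoid body of round spermatids. The piRNAs guide the silencing of transposons and the cutting of other transcripts, and loss of many of these proteins stops sperm formation. In the textbook description of the cycle, the meiotic divisions fall in stage XII, a new cohort of round spermatids is present from stage I, mature sperm are released in stage VIII, and round spermatids have begun to elongate by stage IX.

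Values are log2 of the deposited array intensity. In a whole testis, fewer cells of a type and less RNA per cell cannot be told apart. Array medians lay between 296.9 and 309.1 on the intensity scale. Across genes, which are not replicates, the correlation within groups was 0.987 to 0.995, but for 9 of 12 arrays the nearest array belonged to another group. In particular, II-IV sample 2 lay closest to XII-I sample 2 and II-IV sample 1 to IV-VI sample 2, both at a correlation of 0.998. Germ cell markers of the labelled tissue were bright: the late spermatid gene Tnp2 reached 13.51 in VIII-IX and the spermatocyte cyclin Ccna1 12.75 in XII-I.

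Tdrd7 was the member that passed limma's F test among the 6 groups, and its transcript fell from the first part of the cycle to the last. Tdrd7 (probe set 10504672) has LOTUS and Tudor domains and takes part in the remodelling of the chromatoid body. Its log2 intensity on samples 1 and 2 was 11.52 and 11.63 in XII-I, 11.53 and 11.65 in II-IV, 11.44 and 11.63 in IV-VI, 11.24 and 11.00 in VII, 10.84 and 11.08 in VIII-IX, and 10.80 and 10.72 in IX-XI. The 6 arrays of the first 3 groups all lay above the 6 of the last 3, a split that was not planned and was not counted over all genes. Both IX-XI samples lay below every other sample, which held for 2.34% of all genes. The mean was 11.59 ± 0.09 (SD, n = 2) in II-IV and 10.76 ± 0.05 in IX-XI, a range of 1.78-fold. The means of XII-I (11.57 ± 0.07), II-IV and IV-VI (11.53 ± 0.14) differed by less than the spread of their samples, and VII (11.12 ± 0.17) and VIII-IX (10.96 ± 0.17) overlapped. The F test gave adjusted p = 0.013 in limma, and 1 of the 10 members passed, against 19.9% of all genes.

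**Figure D1:**
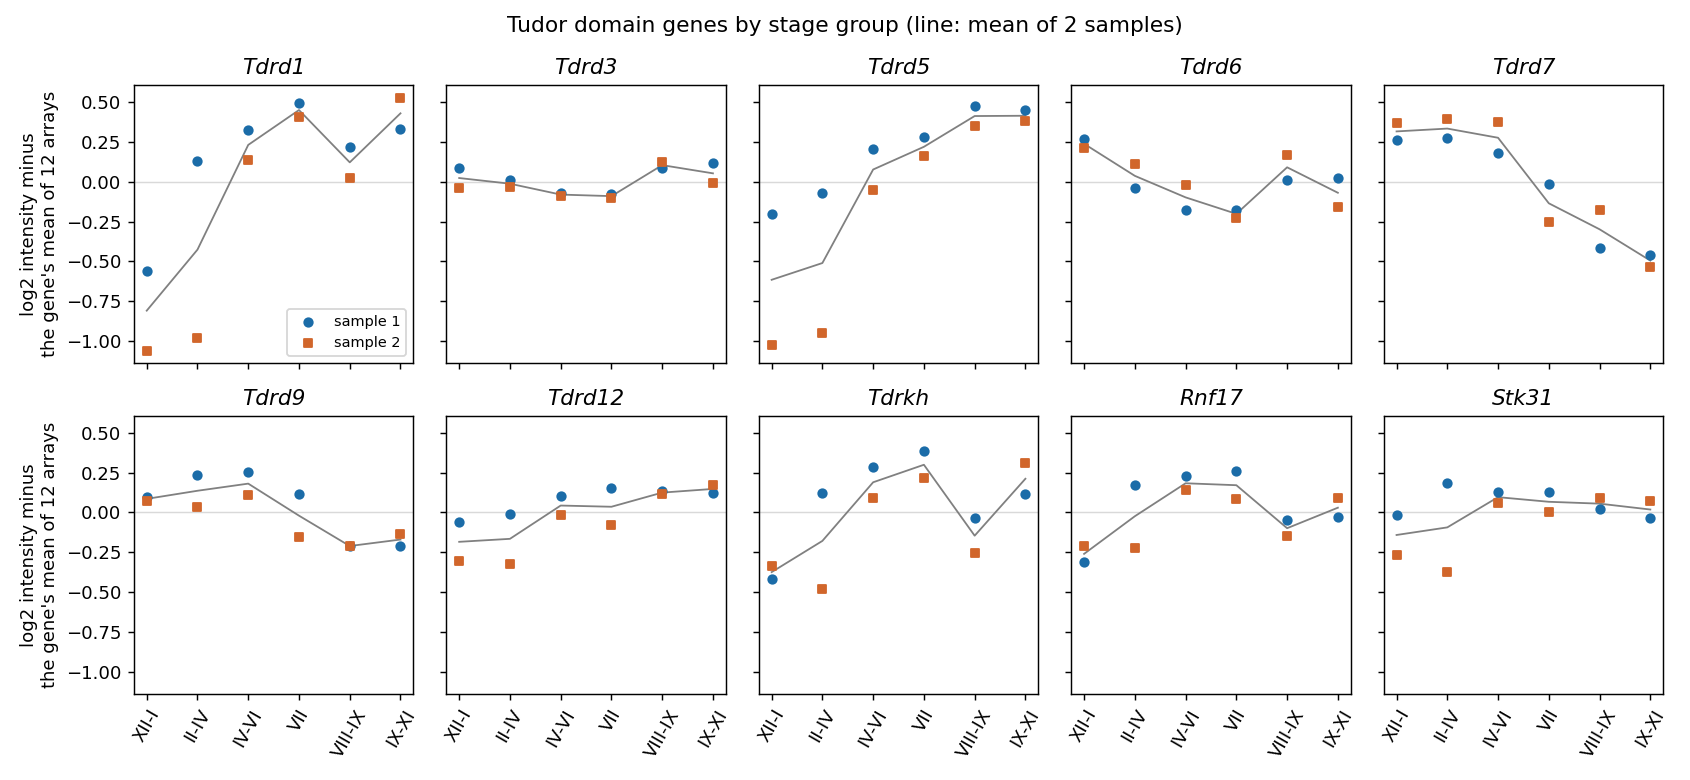
Log2 intensity of each of the 10 genes on each array, minus that gene's mean over 12 arrays, by stage group; circles are sample 1, squares sample 2 and the line joins the means of 2 samples. Tdrd7 is high in XII-I to IV-VI and lowest in IX-XI, while Tdrd1 and Tdrd5 are low on both XII-I arrays and on II-IV sample 2.

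Tdrd7 passed the F test in each of the 12 fits that left out 1 array, with adjusted p in limma from 0.012 to 0.042, but not without the second samples of VIII-IX and IX-XI (adjusted p = 0.095), when 19 genes of the whole array passed. Against the mean of the other 5 groups, Tdrd7 fell in IX-XI by 0.59 ± 0.09 log2 (SE; limma, adjusted p = 0.020), where 1.79% of all genes were called lower, and rose in XII-I by 0.38 ± 0.09 log2 (adjusted p = 0.037), where 7.51% were called higher. The IX-XI call ended without IX-XI sample 1 (adjusted p = 0.20) or sample 2 (adjusted p = 0.21). The XII-I call was kept in 5 of 12 such fits: it ended without XII-I sample 1 (adjusted p = 0.14), XII-I sample 2 (0.18), II-IV sample 1 (0.052), IV-VI sample 1 (0.070), VIII-IX sample 1 (0.056) and either sample of IX-XI (0.056 and 0.073). It also ended with array weights (adjusted p = 0.082).

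Among Tdrd5, Tdrd6 and Rnf17, Tdrd5 varied most. Tdrd5 (probe set 10359118) also has LOTUS and Tudor domains and is needed for chromatoid body assembly. It measured 10.73 and 9.91 in XII-I, 10.87 and 9.99 in II-IV, 11.14 and 10.88 in IV-VI, 11.22 and 11.10 in VII, 11.41 and 11.29 in VIII-IX, and 11.38 and 11.32 in IX-XI. The samples of XII-I differed 1.77-fold and those of II-IV 1.84-fold, with sample 2 the lower in both, whereas in the other 4 groups the samples differed by at most 1.20-fold. The range of means was 2.04-fold, from 11.35 ± 0.05 (SD, n = 2) in IX-XI to 10.32 ± 0.58 in XII-I. The F test gave adjusted p = 0.080 in limma.

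Tdrd6 (probe set 10451033), a protein of many Tudor domains that gives the chromatoid body its structure, moved in a narrow band. It measured 12.52 and 12.46 in XII-I, 12.22 and 12.37 in II-IV, 12.07 and 12.24 in IV-VI, 12.08 and 12.02 in VII, 12.27 and 12.42 in VIII-IX, and 12.27 and 12.09 in IX-XI. Both XII-I samples lay above all others, which 6.42% of genes did, and the means ranged 1.36-fold from XII-I to VII. The F test gave adjusted p = 0.086 and the comparison of XII-I with the other 5 groups, at 0.29 ± 0.08 log2 (SE), adjusted p = 0.054, both in limma. With a trend and robust variance model they gave 0.044 and 0.032. The XII-I comparison, but not the F test, also passed with quantile normalization repeated (0.037) or the dimmest genes left out (0.047). Neither passed with array weights or sample number as a block. Rnf17 (10415472), a RING finger and Tudor protein of its own granules, ran between 10.78 on XII-I sample 1 and 11.35 on VII sample 1. Its means were lowest in XII-I (10.83 ± 0.07, SD, n = 2) and highest in IV-VI (11.28 ± 0.06), with adjusted p = 0.15 in limma's F test.

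The members that act with PIWI proteins in making and using piRNAs were led by Tdrd1. Tdrd1 (probe set 10464171) binds Piwil2 in the cement between mitochondria. Its log2 intensity on samples 1 and 2 was 10.66 and 10.16 in XII-I, 11.35 and 10.24 in II-IV, 11.55 and 11.35 in IV-VI, 11.71 and 11.63 in VII, 11.44 and 11.24 in VIII-IX, and 11.55 and 11.75 in IX-XI. XII-I sample 1, XII-I sample 2 and II-IV sample 2 lay between 10.16 and 10.66 and the other 9 arrays between 11.24 and 11.75. The 2 samples of II-IV differed 2.16-fold. The means ranged 2.39-fold, from 11.67 ± 0.06 (SD, n = 2) in VII to 10.41 ± 0.35 in XII-I. IX-XI, at 11.65 ± 0.14, overlapped VII, and XII-I overlapped II-IV, at 10.79 ± 0.79.

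In XII-I, Tdrd1 fell below the mean of the other 5 groups by 0.97 ± 0.24 log2 (SE), with adjusted p = 0.035 in limma, where 3.33% of all genes were called lower. Its F test missed the threshold at adjusted p = 0.056. It passed in 4 of 8 other settings: quantile normalization repeated (0.046), the dimmest genes left out (0.044), array weights (0.040) and sample number as a block (0.038). The XII-I call was kept in 4 of 12 fits with 1 array left out. It ended without XII-I sample 1 (-1.22 log2, adjusted p = 0.11), XII-I sample 2 (-0.72 log2, 0.21), IV-VI sample 1 (0.067), either sample of VII (0.057 and 0.053), VIII-IX sample 1 (0.064) and either sample of IX-XI (0.051 and 0.069). It also ended with array weights (adjusted p = 0.057).

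Tdrkh (probe set 10494043), also called Tdrd2, sits on the mitochondrial surface where piRNA ends are trimmed. It measured 9.14 and 9.23 in XII-I, 9.68 and 9.08 in II-IV, 9.85 and 9.65 in IV-VI, 9.94 and 9.78 in VII, 9.52 and 9.31 in VIII-IX, and 9.68 and 9.87 in IX-XI. The same 3 arrays were lowest as for Tdrd1, followed by VIII-IX sample 2. The means ranged 1.60-fold from VII (9.86 ± 0.12, SD, n = 2) to XII-I (9.19 ± 0.06), and the F test gave adjusted p = 0.089 in limma. The 2 samples of II-IV differed 1.52-fold.

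Tdrd9 and Tdrd12 join a Tudor domain to an RNA helicase domain. Tdrd9 (probe set 10398759) measured 10.87 and 10.84 in XII-I, 11.00 and 10.81 in II-IV, 11.02 and 10.88 in IV-VI, 10.89 and 10.61 in VII, 10.56 and 10.56 in VIII-IX, and 10.56 and 10.64 in IX-XI. Both VIII-IX samples were lowest before rounding, as for 4.14% of genes, but IX-XI sample 1 equalled them to 2 decimals, so no order is read from this. The range of means was 1.31-fold, from IV-VI to VIII-IX, and the F test gave adjusted p = 0.096 in limma. Tdrd12 (10562468) ran from 10.42 on II-IV sample 2 to 10.92 on IX-XI sample 2, with means 1.26-fold apart and adjusted p = 0.26.

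Stk31 and Tdrd3 had the narrowest ranges of group means, 1.18-fold and 1.14-fold. Stk31 (probe set 10538222), a Tudor protein with a kinase-like domain, ran from 9.65 on II-IV sample 2 to 10.21 on II-IV sample 1, so that a single group held both extremes, and its F test gave adjusted p = 0.78 in limma. Tdrd3 (10416709), which reads methylated histones and is expressed in many tissues, ran from 10.19 on VII sample 2 to 10.42 on VIII-IX sample 2, with adjusted p = 0.41. Group means ranged more widely than those of Tdrd3 for 79.7% of all genes. In all, Tdrd1 and Tdrd5 ranged at least 2-fold (2 of 10 members, against 9.37% of all genes), and the median range of the 10 members was 0.44 log2, against 0.34 over all genes. The lowest mean fell in XII-I for 6 members (Tdrd1, Tdrd5, Tdrd12, Tdrkh, Rnf17 and Stk31), and in XII-I for 16.1% of all genes. This count rested on single arrays: it was 1 (Rnf17) without II-IV sample 1, when the other 5 were lowest in II-IV, and 3 without XII-I sample 2.

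At the step from IX-XI to XII-I, where one round of the cycle joins the next, Tdrd7 and Tdrd1 moved in opposite directions. Tdrd7 rose by 0.81 ± 0.12 log2 (SE, n = 2 against 2), or 1.75-fold, with adjusted p = 0.0086 in limma. Tdrd1 fell by 1.24 ± 0.30 log2, or 2.36-fold, with adjusted p = 0.032. These were 1 member higher, against 7.33% of all genes, and 1 lower, against 4.63% (12% in either direction). Tdrd5 differed by -1.03 ± 0.30 log2 (adjusted p = 0.055), Tdrkh by -0.59 ± 0.18 (0.068) and Tdrd6 by 0.31 ± 0.10 (0.090), and none of the remaining members passed. The Tdrd7 call ended without IX-XI sample 2 (0.77 log2, adjusted p = 0.080). The Tdrd1 call ended without XII-I sample 2 (-0.99 log2, adjusted p = 0.14), IX-XI sample 1 (0.098) or IX-XI sample 2 (0.19). Neither passed when the second samples of VIII-IX and IX-XI were both left out (adjusted p = 0.10 for Tdrd7 and 0.24 for Tdrd1).

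**Figure D2:**
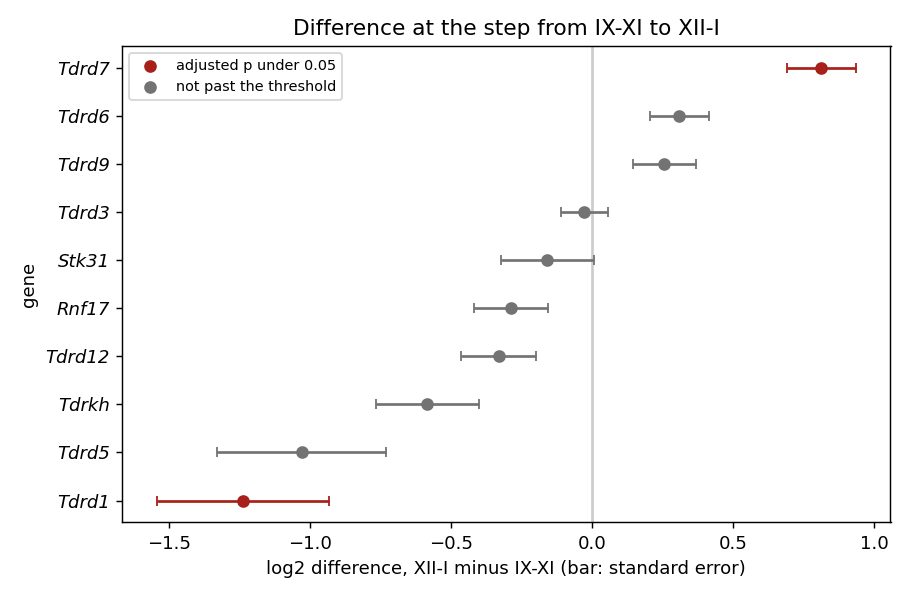
Log2 difference between XII-I and IX-XI for each of the 10 genes (XII-I minus IX-XI, horizontal axis), with the standard error as a bar; red marks adjusted p under 0.05 in limma. Tdrd7 lies at 0.81 and Tdrd1 at -1.24, on opposite sides of zero, and the other 8 genes lie between them.

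At the other 5 steps 0 members were called in limma. An unadjusted p under 0.05 was reached by 7 members from IX-XI to XII-I, against 27.8% of all genes, and 2 of the 7 were called after adjustment. It was reached by 3 members from VII to VIII-IX (Tdrd3, Tdrd6 and Tdrkh), against 25.3%, and by 1 from IV-VI to VII (Tdrd7), against 5.93%. After adjustment 3.93% of all genes were called from VII to VIII-IX and none from IV-VI to VII. The remaining 3 steps had 0 such members and no gene called.

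A fit of 1 cosine wave over the 6 groups, taken as equal steps, used the order of the groups. It was passed by Tdrd7, Tdrd9 and Tdrd5, 3 of 10 members against 28% of all genes. The fitted wave of Tdrd7 peaked in II-IV, with a peak 1.80-fold above its trough (limma, adjusted p = 0.0039). That of Tdrd9 also peaked in II-IV, 1.33-fold above its trough (adjusted p = 0.013), and that of Tdrd5 peaked in VIII-IX, 2.07-fold above its trough (adjusted p = 0.033). Tdrd7 and Tdrd9 passed in all 12 fits with 1 array left out and Tdrd5 in 8 of them, not without II-IV sample 2 (adjusted p = 0.087), IV-VI sample 2 (0.056), VII sample 1 (0.057) or VIII-IX sample 1 (0.067). The stages are not of equal length, so the wave is only an outline of the profile.

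**Figure D3:**
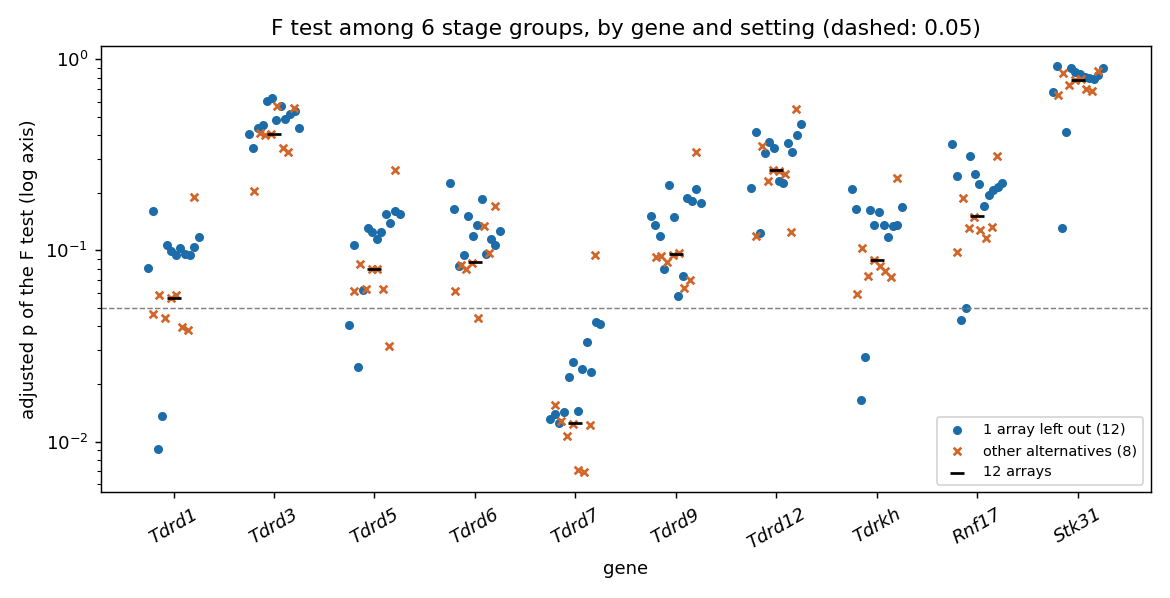
Adjusted p of the F test among the 6 groups (vertical log axis) for each gene, with all 12 arrays (black bar), with each array left out (blue points) and under 8 other alternatives (orange crosses); the dashed line is the threshold of 0.05. Tdrd7 lies under the line in all but 1 of its 20 alternatives, and Tdrd1 crosses it, with leave-one-out values from 0.0092 to 0.16.

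Markers of round spermatids, the cells that hold the chromatoid body, were lowest on XII-I, VIII-IX sample 2 and II-IV sample 2, and so moved in part with Tdrd1, Tdrd5 and Tdrkh. Of 10 measured markers, 4 passed the F test (Lyzl6, Sun5, Spaca4 and Spaca7), and 5 fell from IX-XI to XII-I. Among these 5, Acrv1, an acrosomal protein, fell by 1.52 log2 and Izumo1, the sperm protein that binds the egg, by 1.42 log2. Neither Acrv1 nor Izumo1 passed the F test (limma, adjusted p = 0.054 and 0.052). Not all of the 10 were lower in XII-I: Tssk3 differed by 0.07 log2 and Zpbp by 0.08 log2. None was near the lower end of the array's values: the mean of the 10 ran from 10.45 to 11.25 in XII-I, 11.37 to 12.06 in II-IV, 12.13 to 12.28 in IV-VI, 12.09 to 12.27 in VII, 11.12 to 11.70 in VIII-IX and 11.70 to 12.03 in IX-XI. As deviations from the mean of all arrays, the median marker stood at -1.56 on XII-I sample 1, -0.52 on XII-I sample 2 and -0.38 on II-IV sample 2. Tdrd1 was lower on XII-I sample 2 than on XII-I sample 1, the reverse of the markers, and VIII-IX sample 2, at -0.59 for the markers, held Tdrd1 at 11.24 and Tdrd5 at 11.29. Tdrkh was lower on XII-I sample 1 than on XII-I sample 2, as the markers were, but its lowest array was II-IV sample 2, at 9.08. Outside XII-I and II-IV, VIII-IX sample 2 was the lowest array for Tdrkh, at 9.31, and also for Tdrd1. Of 15 pachytene and diplotene spermatocyte markers 3 passed the F test, and their mean ran from 11.38 to 11.71 over the 12 arrays, but members went both ways. Pou5f2, a germ cell transcription factor, ranged 6.62-fold, and from IX-XI to XII-I Ccna1 rose by 1.37 log2 (limma, adjusted p = 0.017) while H1f6, the testis linker histone, fell by 1.26 log2 (adjusted p = 0.026). Among the other cell types, the F test was passed by 9 of 9 early meiotic, 3 of 10 elongating spermatid, 3 of 11 spermatogonia and 1 of 10 myoid, vascular and macrophage markers. The median deviation of the early meiotic markers was 0.20 to 0.47 on the arrays of VIII-IX and IX-XI, where Tdrd7 was low, but -0.12 and -0.17 in VII, where it was also low, and -0.33 to 0.08 on the other arrays. Members of that list went both ways: Rec8, a meiotic cohesin, was highest in IV-VI and lowest in VIII-IX. None of 9 Sertoli and 5 Leydig cell markers passed in limma, with 2 and 1 at an unadjusted p under 0.05. Single arrays stood apart: the median deviation of the Leydig markers was 0.71 on VII sample 2 and -0.80 on IX-XI sample 2. On VII sample 2 it was 0.29 for Sertoli and 0.30 for myoid, vascular and macrophage markers. The step calls of Tdrd7 and Tdrd1 ended without IX-XI sample 2. That of Tdrd1 also ended without XII-I sample 2 or IX-XI sample 1, where the Leydig deviation was 0.07 and 0.02. The part of these cell types in the members' values was not tested.

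**Figure D4:**
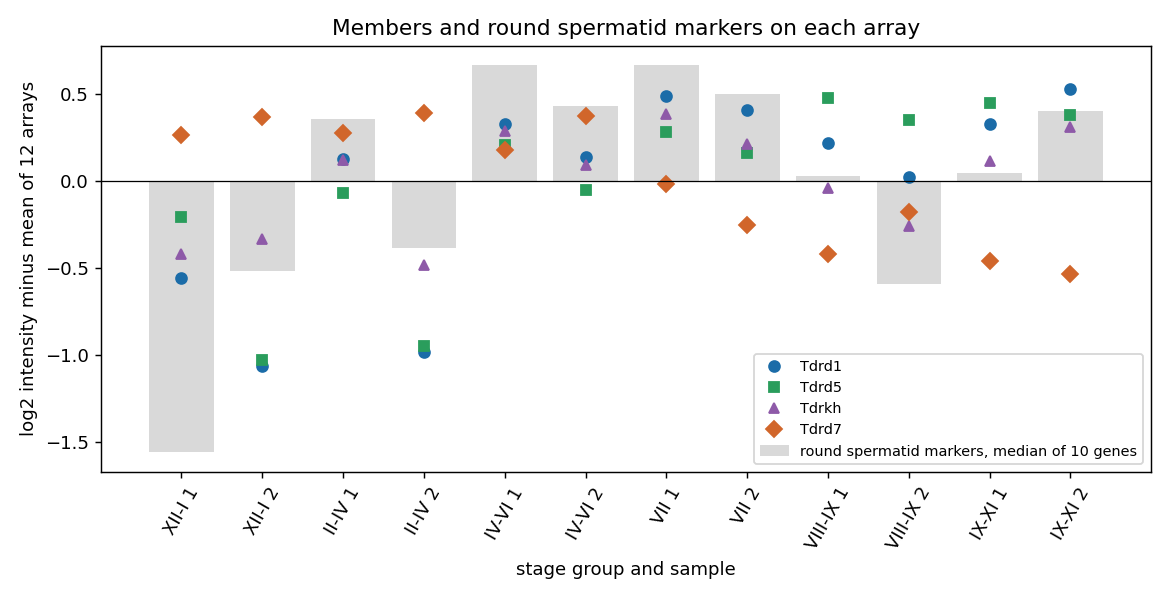
Log2 intensity of Tdrd1, Tdrd5, Tdrkh and Tdrd7 on each array minus the gene's mean over 12 arrays (symbols), with the median deviation of 10 round spermatid markers as bars from zero. The bars are lowest on XII-I sample 1, at -1.56, whereas Tdrd1 and Tdrd5 are lowest on XII-I sample 2 and II-IV sample 2.

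Partners of these proteins in the piRNA pathway were read from a list of 22 genes, 19 of them measured. The F test was passed by 5 (26.3%): Tex15, Piwil2, Henmt1, Mov10l1 and Gtsf1. Tex15, which acts in transposon silencing, was highest in IV-VI, at 10.88 ± 0.09 (SD, n = 2), and ranged 2.43-fold. Piwil2, the PIWI partner of Tdrd1, ranged 1.77-fold, from 11.83 ± 0.07 in IV-VI to 11.01 ± 0.11 in VIII-IX (limma, adjusted p = 0.049). Mov10l1, the helicase that starts piRNA processing, was highest in II-IV and ranged 1.61-fold. Gtsf1, a cofactor of PIWI slicing, and Henmt1, which methylates piRNA ends, were highest in VIII-IX and ranged 1.52-fold and 1.72-fold.

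From IX-XI to XII-I, 2 of the 19 partners fell. Gtsf1 fell by 0.48 log2 (limma, adjusted p = 0.033), and Piwil1, the PIWI protein of late spermatocytes and round spermatids, fell by 1.08 log2 (adjusted p = 0.042). Piwil1 was named after its values were seen. Its levels were 11.69 ± 0.47 (SD, n = 2) in XII-I, 11.76 ± 0.66 in II-IV and at least 12.42 in the other 4 groups. At the same step Piwil2 differed by -0.21 log2 (adjusted p = 0.50), so that Tdrd1 fell where its partner did not pass the test. The difference between the 2 genes was not tested.

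Among 17 other genes of the chromatoid body and RNA granules, 4 passed the F test. Dicer1, which cuts small RNA precursors, rose from IX-XI to XII-I by 0.64 log2 (limma, adjusted p = 0.0076), as did Xrn1, an RNA exonuclease, by 0.76 log2 (adjusted p = 0.011). Adad2, a germ cell protein of the adenosine deaminase domain family, fell there by 1.23 log2 (adjusted p = 0.040). Upf1, a helicase of RNA decay, was highest in VIII-IX and ranged 1.82-fold. The median range of the group means was 0.58 log2 in the piRNA list and 0.42 in this one, against 0.34 over all genes. Of 20 measured Tudor domain genes outside the germ granule set, 5 passed the F test (25%): Phf1, Smndc1, Uhrf1, Smn1 and Setdb1. Smndc1 and Smn1, which act in the assembly of splicing particles, were highest in IV-VI. Phf1 and Setdb1, which act on histone methylation, were highest in VIII-IX, and Uhrf1, which maintains DNA methylation, in XII-I.

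The genes whose profile lay closest to that of Tdrd7 over the 12 arrays were Tmem39b, Arhgef37 and Nop58. Likeness was the root mean square difference of log2 levels after each gene was centred on its mean, and 3614 named genes past the F test were compared. It was 0.079 for Tmem39b, 0.084 for Arhgef37 and 0.091 for Nop58, against a spread of Tdrd7 about its own mean of 0.34. Among members, Tdrd9 was nearest to Tdrd7, at 0.23, and Tdrd1 farthest, at 0.80. Tdrd1 and Tdrd5 lay 0.21 apart, and the nearest pair, Stk31 and Tdrd12 at 0.094, was of genes with little spread.

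The 250 bases before a transcription start listed in RefSeq (GRCm38.p6) were available here for 8 members. They were searched for AACNGTT, a site of MYB factors such as the piRNA regulator Mybl1, and CACGTG, the E-box bound by basic helix-loop-helix factors. Both motifs read the same on the 2 strands. CACGTG was found before a start of Tdrd1, Tdrd9 and Stk31 (3 of 8 members, against 6.86% of the 27025 genes with a window), and AACNGTT before none (4.27% of genes). The windows of Tdrd1 and Tdrd7, the members with calls in opposite directions, and of Tdrd9, with 2 matches, are shown 5′ to 3′ with CACGTG in capitals. They end at the base before the first listed start, and lie at chr19:56825959-56826208, chr4:45965085-45965334 and chr12:111971309-111971558, all on the plus strand.
Tdrd1: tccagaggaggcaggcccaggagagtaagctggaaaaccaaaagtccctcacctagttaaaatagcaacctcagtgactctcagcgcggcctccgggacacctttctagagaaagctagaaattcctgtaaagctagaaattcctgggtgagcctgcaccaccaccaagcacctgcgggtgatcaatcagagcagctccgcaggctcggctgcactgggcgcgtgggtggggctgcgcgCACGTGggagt
Tdrd7: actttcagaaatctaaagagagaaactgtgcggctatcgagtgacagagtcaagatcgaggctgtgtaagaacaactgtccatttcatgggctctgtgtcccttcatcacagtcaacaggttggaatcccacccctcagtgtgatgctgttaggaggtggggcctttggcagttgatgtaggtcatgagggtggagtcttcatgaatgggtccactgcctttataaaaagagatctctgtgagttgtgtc
Tdrd9: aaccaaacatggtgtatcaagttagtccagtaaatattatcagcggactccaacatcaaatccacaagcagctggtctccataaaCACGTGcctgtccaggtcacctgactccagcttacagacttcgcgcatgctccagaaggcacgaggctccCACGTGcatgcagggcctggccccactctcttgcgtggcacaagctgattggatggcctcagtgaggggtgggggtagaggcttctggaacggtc
The hexamer began 11 bases before the start of Tdrd1, and 165 and 95 bases before that of Tdrd9. Of the 3 listed starts of Tdrd7, 0 had either motif in its window, and Tdrd1 had CACGTG before 2 of 3 starts, in windows that overlap. A match is only these letters in the window and says nothing of binding.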

How the data were processed

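The authors deposited 1 table of probe set intensity values on a linear scale, made with RMA (background correction, quantile normalization and probe summary) per the submitters' processing notes; its version and genome build are not given in the sources used here. RMA makes array distributions nearly alike, so a change in total RNA cannot be seen. Values were taken to log2 with nothing added. Of 28853 probe sets, 21797 had 1 gene symbol, and the brightest of each gene was kept (19946 genes). limma 3.58.1 (R 4.3.3) was fitted to all genes with 6 group means, 12 arrays and 6 residual degrees of freedom, with Benjamini-Hochberg adjustment over all genes in each test at 0.05. The fit was tested on simulated data. All 10 members were named. From the lists of piRNA partners, RNA granule genes and other Tudor domain genes, those past the F test were named. For members past it, the 3 nearest profiles were named. From the cell type marker lists only some genes were named, not all of them past the F test. No protein sequence was used here. Members and lists were chosen with earlier results of these data known. Alternatives covered normalization, filter, probe set choice, variance model, array weights, sample number as a block and left-out arrays. The number of arrays limits all precision.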

Additional observations from a re-analysis of the deposited data

How the results depend on the processing

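Over all genes, the F test was passed by 19.9% in the main fit and 21.5% with repeated quantile normalization. The share was 29.6% of the genes kept without the dimmest 30%, 21.0% with a trend and robust variance model, and 23.2% with array weights. With sample number as a block it was 20.8%. Among the members, the F test was passed by 1. It was passed by 2 with repeated quantile normalization, without the dimmest 30% of genes, with a trend and robust variance model and with array weights. With sample number as a block it was passed by 3. The members passing also changed when the second samples of VIII-IX and IX-XI, or 1 array, were left out. Such fits leave 1 sample in a group, so their member counts are not compared. Calls at neighbouring steps numbered 2, and 4 with repeated quantile normalization, and they too changed when arrays were left out. Calls against the other 5 groups numbered 3, and 5 with repeated quantile normalization, without the dimmest genes and with the trend model. They also changed when arrays were left out. With array weights they numbered 2, the XII-I calls of Tdrd1 and Tdrd7 being lost and a IV-VI call of Tdrd7 gained. The cosine wave was passed by 3 members, against 28% of all genes. It was passed by 3 with repeated quantile normalization (30.4% of all genes), without the dimmest genes (38.6%) and with array weights (29.6%). The members passing it changed when arrays were left out. The number of all genes passing also changed from fit to fit, so these counts are not read as changes in the members. The causes were not tested. Of 200 refits of the 10 members' F tests, 186 stayed on the same side of the threshold, 13 newly passed, 1 was lost (Tdrd7 without that pair) and 0 changed direction. Direction means the sign of the difference between the groups that were highest and lowest with all 12 arrays. Not every refit could move a member's values. With 1 probe set per member, the mean of all probe sets gave the same values, as did leaving out the dimmest genes. The highest or lowest group itself changed in some refits: Tdrd7 stayed highest in II-IV in 9 of 12 fits with 1 array left out. The labels do not say that sample numbers pair the samples. Differences between samples 1 and 2 correlated across genes at -0.35 to 0.54 over 15 pairs of groups, 7 of them over 0.1, so a shared number was not taken as a pairing, although Tdrd5 was higher on sample 1 in all 6 groups. With sample number as a block Tdrd1 and Tdrd5 also passed (limma, adjusted p = 0.038 and 0.032).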
